A study of Mus musculus with 9 samples.

Results

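The regulatory factor X (RFX) genes described here are *Rfx1*, *Rfx2*, *Rfx3*, *Rfx4*, *Rfx5* and *Rfx7*, chosen by their gene symbols in the count files. They are 6 of the 43808 genes counted in hair cells (HCs) of newborn mice that carry the diminuendo (Dmdo) allele of *Mir96*, a microRNA gene of sensory cells. RNA of HCs was sequenced in bulk from 9 mice at postnatal day (P) 1, with 1 library per mouse. The groups were 3 homozygous mutants (Mir96Dmdo/Dmdo, mice 43, 46 and 47), 3 heterozygotes (Mir96+/Dmdo, mice 45, 48 and 51) and 3 wild-type mice (Mir96+/+, mice 44, 55 and 59). Every mouse, wild-type ones included, also carried the Atoh1/nGFP reporter, which labels HCs through *Atoh1* regulatory sequence, and cells positive for both GFP and the epithelial surface protein CD326 were sorted. Cochlear and vestibular HCs were sorted together, from a cross of the C3HeB/FeJ mutant with a C57BL6 reporter line, so a level is an average over both organs. In bulk RNA, fewer cells of a type and less RNA per cell cannot be told apart.

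RFX proteins share a winged-helix DNA-binding domain that recognises the X-box, a palindromic sequence. RFX1, RFX2, RFX3 and RFX4 are known as regulators of genes that build cilia, RFX5 as the DNA-binding subunit of the complex that switches on major histocompatibility complex (MHC) class II genes, and RFX7 as a regulator of growth-restraining genes in human cells and of lymphocyte quiescence in mice. In mouse HCs, RFX1 and RFX3 together are known to be needed for the survival of outer HCs after the onset of hearing.

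The sequences of the microRNA are shown first, because its seed (bases 2 to 8) is what the Dmdo allele changes. They are given 5′ to 3′ from RefSeq (GRCm38.p6, chr6:30169506-30169528, minus strand), with the seed in capitals. The Dmdo substitution is A7U, counted from 1 at the 5′ end of the mature microRNA.
mmu-miR-96-5p: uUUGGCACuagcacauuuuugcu
Dmdo form: uUUGGCUCuagcacauuuuugcu
Matches to either seed were searched in the longest annotated 3′ UTR of each gene (GENCODE vM21, GRCm38), and its other transcripts were not searched. *Rfx3* and *Rfx5* were the members with a match, and the matches are printed with the letters of the match in capitals and 10 bases on each side.
Rfx3, wild-type seed, chr19:27766445-27766451: agaagagactGTGCCAAtctggaaagt
Rfx3, Dmdo seed, chr19:27766566-27766572: aagtcaataaAGCCAAAaaatggaaag
Rfx3, Dmdo seed, chr19:27765226-27765232: tgagaattatAGCCAAAagagctacac
Rfx5, Dmdo seed, chr3:94959170-94959176: gttcccaggaAGCCAAAgaagcagaag
The *Rfx3* gene lies on the minus strand and *Rfx5* on the plus strand. The wild-type match in *Rfx3* pairs with seed bases 2 to 8, and the 3 Dmdo matches pair with bases 2 to 7 and have an A opposite base 1. Such matches were common. Of 12974 tested protein-coding genes, 19.7% had a match to the wild-type seed and 19.4% a match to the Dmdo seed. The 3′ UTR of *Rfx3* is long (6734 bases), and among 378 genes with a 3′ UTR within 1.25 times of that length 58.2% had a match to the wild-type seed and 56.3% to the Dmdo seed. Among 1617 genes with a 3′ UTR near the 3410 bases of *Rfx5*, 37.0% had a match to the Dmdo seed. *Rfx1*, *Rfx2*, *Rfx4* and *Rfx7* had no match to either seed in the 3′ UTR searched, and no member had an 8-base match there.

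The libraries held 18175317 to 30932531 counted reads in the homozygous mutant HCs, 29470207 to 34873964 in the heterozygous HCs and 19677015 to 28486252 in the wild-type HCs. *Pou4f3*, a transcription factor that defines HCs, stood at 1049 to 1294 CPM (reads of a gene over all counted reads of its library, scaled to a common total) in all 9 libraries, and none of the 5 red blood cell markers had a read. The 14 HC markers summed to 10913 to 13091 CPM in homozygous mutant, 13241 to 16246 CPM in heterozygous and 13651 to 18525 CPM in wild-type HCs. In homozygous mutant against wild-type HCs 2 of the 14 had a log2 fold change above 0. The median of the 14 was -0.47, against -0.02 over all genes tested. The paper reports lower RNA integrity in a wild-type and a homozygous mutant replicate than in the rest. Its lowest number of sorted cells was in a homozygous mutant sample. Libraries homozygous mutant 46 and wild-type 59 stood apart from the other 7 on the leading principal components of log2 CPM. Homozygous mutant 46 also had 1057 CPM in the sum of 8 mesenchyme and fibrocyte markers, against 84.9 to 250 CPM in the others. All 3 homozygous mutants had more reads of the Y-linked *Ddx3y* than of *Xist*, whereas heterozygous 48, wild-type 44 and wild-type 59 had more *Xist*, so that sex was not balanced over the genotypes. Reads of the *Mir96* gene ranged over 0.0647 to 0.275 CPM in homozygous mutant, 0 to 8.95 CPM in heterozygous and 0.0894 to 26.7 CPM in wild-type HCs, and such counts do not read the seed substitution, so they are no check of the labels.

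Of the 6 members, *Rfx1*, *Rfx2*, *Rfx3*, *Rfx5* and *Rfx7* were read in every library and passed the filter on low counts (a minimum of 20 reads in 2 or more libraries of a genotype), as did 15184 genes in all. *Rfx4*, known for its role in the developing neural tube and brain (chr10:84756062-84906538), had 0 reads in all 9 libraries. The limit that a count of 0 allows, 3 reads, was 0.0860 to 0.165 CPM per library for counting error alone. The remaining family genes, *Rfx6* and *Rfx8*, also had no read in any library. No member passed the test for a difference between genotypes. *Rfx5* had the largest difference of the 5 between homozygous mutant and wild-type HCs, with a fold of 1.85 whose interval just reached no difference, and that difference shrank when homozygous mutant 46 was left out.

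*Rfx3* (chr19:27761721-28011166, minus strand), which in mice is needed for nodal cilia and left-right patterning, was the member with the most reads. It had 65.4, 90.8 and 117 CPM in homozygous mutant HCs, 65.0, 88.1 and 111 CPM in heterozygous HCs and 77.5, 70.9 and 102 CPM in wild-type HCs (mice in the order of their numbers above, here and below). The 3 genotypes covered nearly the same range, with the lowest library of each at 65.0 to 70.9 CPM and the highest at 102 to 117 CPM. The log2 fold change was 0.04 for homozygous mutant against wild-type (SE 0.34, 95% confidence interval -0.67 to 0.74), -0.02 for heterozygous against wild-type (-0.72 to 0.69) and 0.05 for homozygous mutant against heterozygous (-0.65 to 0.76). Thus *Rfx3* had a difference near 0 whose interval ran to 1.67-fold higher and to 0.630 of the wild-type level. It was the only member with a match to the wild-type miR-96 seed in the 3′ UTR searched.

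*Rfx1* (chr8:84066834-84096992, plus strand), the founding member of the family, had 35.2, 66.6 and 33.3 CPM in homozygous mutant HCs, 14.4, 78.4 and 39.9 CPM in heterozygous HCs and 40.6, 91.2 and 68.6 CPM in wild-type HCs. Its mean was 45.01 ± 18.7 CPM in homozygous mutant, 44.2 ± 32.3 CPM in heterozygous and 66.8 ± 25.4 CPM in wild-type HCs (SD, n = 3 each). The groups overlapped, and the 9 values spanned 6.35-fold, the widest span of the 5 members. The log2 fold change was -0.65 for homozygous mutant against wild-type (SE 0.51, interval -1.72 to 0.42) and -0.67 for heterozygous against wild-type (-1.74 to 0.39), both set against the same wild-type libraries, and 0.02 for homozygous mutant against heterozygous (-1.04 to 1.09). The homozygous mutant value turned to 0.41 when the fit held a term for mouse numbers of 47 and lower against 48 and higher, classes of which the lower holds all 3 homozygous mutants, and the value for homozygous mutant against heterozygous was 1.28 in that fit. Leaving out 1 library at a time, the value ran from -1.04 (without homozygous mutant 46) to -0.38 (without wild-type 55) for homozygous mutant against wild-type, and from -1.40 (without heterozygous 48) to -0.23 (without heterozygous 45) for heterozygous against wild-type. *Rfx1* shares exonic bases with the antisense gene *C330011M18Rik* (6.11 to 32.9 CPM), and no source used here states whether the counting was stranded, so reads of the shared bases cannot be told apart.

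*Rfx2* (chr17:56775897-56831013, minus strand), known for its role in sperm cilia and in multiciliated cells, had the lowest CPM of the 5 members. It had 24.2, 38.7 and 11.3 CPM in homozygous mutant HCs, 29.2, 38.1 and 27.3 CPM in heterozygous HCs and 15.9, 48.5 and 12.4 CPM in wild-type HCs. The highest and the second-lowest of the 9 values were both wild-type, so the other genotypes lay almost wholly inside the wild-type range. The log2 fold change was -0.12 for homozygous mutant against wild-type (SE 0.61, interval -1.39 to 1.15), 0.23 for heterozygous against wild-type (-1.04 to 1.49) and -0.34 for homozygous mutant against heterozygous (-1.61 to 0.93). These were the widest intervals of the 5 members.

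*Rfx1* and *Rfx2* were high in the same mice. Within each genotype, both had their highest level in homozygous mutant 46, heterozygous 48 and wild-type 55. *Rfx5* was also highest in homozygous mutant 46 and wild-type 55, and had 54.2 CPM in heterozygous 48 beside 54.8 CPM in heterozygous 45. In the same 3 libraries the sum of 14 supporting cell markers, all of which were detected, was also the highest of its genotype, at 3168 CPM in homozygous mutant 46 (2620 and 1853 CPM in the other homozygous mutants), 4687 CPM in heterozygous 48 (2078 and 3781 CPM in the other heterozygotes) and 4965 CPM in wild-type 55 (2173 and 2130 CPM in the other wild-type mice). The single markers did not all follow the sum. *Tecta* and *Otog* had the largest means of the 14 in every genotype. Homozygous mutant 46 had the lowest *Fgfr3* (28.1 CPM) and *Prox1* (2.59 CPM) of all libraries, but the highest *Epyc* (154 CPM). The sort took only cells positive for both GFP and CD326, a gate that would leave out supporting cells without GFP. Sums of Schwann cell markers (343 and 282 CPM) and of mesenchyme and fibrocyte markers (1057 and 250 CPM) were also highest of their genotype in homozygous mutant 46 and wild-type 55. In heterozygous 48 they were 247 and 127 CPM, below the highest heterozygous values of 253 and 169 CPM. The part of RNA from supporting cells or other cells in the levels of *Rfx1*, *Rfx2* and *Rfx5* was not tested.

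*Rfx5* (chr3:94954075-94961561, plus strand) had 48.1, 97.9 and 41.3 CPM in homozygous mutant HCs, 54.8, 54.2 and 42.6 CPM in heterozygous HCs and 28.4, 48.2 and 19.9 CPM in wild-type HCs. Its mean was 62.5 ± 30.9 CPM in homozygous mutant, 50.6 ± 6.87 CPM in heterozygous and 32.2 ± 14.5 CPM in wild-type HCs (SD, n = 3 each). Homozygous mutant 46 was the highest and wild-type 59 the lowest of all 9, and wild-type 55 overlapped both other genotypes. The log2 fold change for homozygous mutant against wild-type was 0.89 (SE 0.44, interval -0.03 to 1.81), a fold of 1.85 (0.977 to 3.51), with an adjusted p of 0.396 in edgeR's quasi-likelihood test with Benjamini-Hochberg adjustment. It was 0.57 for heterozygous against wild-type (-0.35 to 1.49), with the same wild-type libraries, and 0.32 for homozygous mutant against heterozygous (-0.60 to 1.23). The value for homozygous mutant against wild-type was 0.41 without homozygous mutant 46, 1.28 without wild-type 55 and 0.17 without homozygous mutant 46 and wild-type 59 together, with adjusted p between 0.315 and 0.933 over the 20 alternatives. *Rfx5* shares exonic bases with the antisense gene *B230398E01Rik*, which had at most 2.55 CPM.

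*Rfx7* (chr9:72532240-72622937, plus strand) was the steadiest member. It had 73.0, 79.3 and 59.7 CPM in homozygous mutant HCs, 66.3, 81.6 and 77.7 CPM in heterozygous HCs and 47.01, 49.3 and 61.5 CPM in wild-type HCs. All 3 heterozygous values lay above all 3 wild-type values, and homozygous mutant 47 lay below wild-type 59. On library sizes scaled by TMM (trimmed mean of M-values), heterozygous 45 had 63.9 CPM against 66.5 CPM in wild-type 59, so the heterozygous and wild-type groups overlapped there. *Rfx7* shares exonic bases with the antisense genes *Gm27232*, which had 7.15 CPM in homozygous mutant 46 and at most 0.456 CPM in the other 8 libraries, and *Gm27241*, which had 1.44 CPM in heterozygous 48 and no read elsewhere. The log2 fold change was 0.34 for homozygous mutant against wild-type (SE 0.34, interval -0.37 to 1.05), 0.42 for heterozygous against wild-type (-0.29 to 1.13) and -0.08 for homozygous mutant against heterozygous (-0.79 to 0.63). Groups that did not overlap, as for *Rfx7* in the heterozygous HCs, were found for 10.9% of all genes tested in that comparison, beside 1 of the 5 members.

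**Figure D1:**
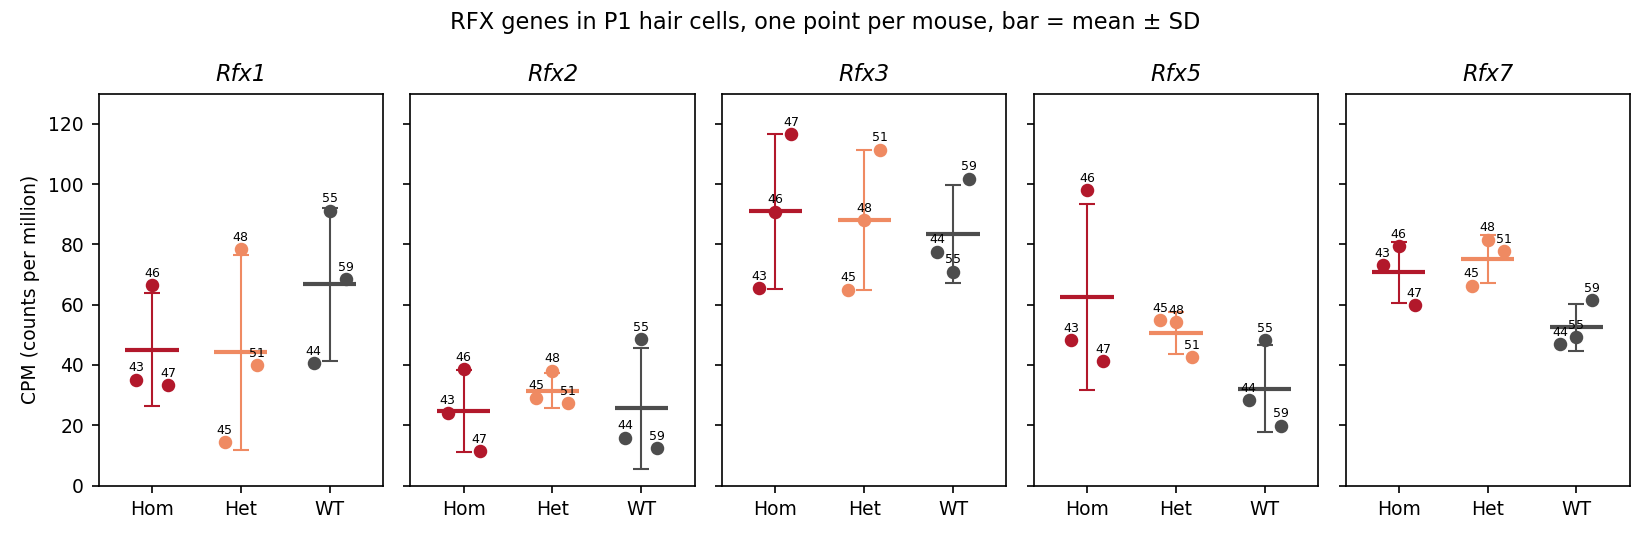
Level of each RFX gene with reads, in CPM (linear axis from 0), in homozygous mutant (Hom), heterozygous (Het) and wild-type (WT) HCs. Points are mice with their numbers, long bars are means and error bars SD (n = 3). Mouse 46 carries the highest *Rfx5* level (97.9 CPM), and mice 46, 48 and 55 lead their genotypes for *Rfx1* and *Rfx2*.

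Calls were made in edgeR's quasi-likelihood test where the Benjamini-Hochberg false discovery rate was below 10% and the fold change exceeded 1.5. Of the 5 members tested, 0 were called in homozygous mutant against wild-type HCs, beside 1.15% of all genes tested. None had an unadjusted p under 0.05 (13.1% of all genes did). DESeq2 and limma-voom called 0 members as well, beside 966 and 338 of the 15184 genes tested. In homozygous mutant HCs 0 of 5 members had groups that did not overlap with wild-type HCs, beside 16.9% of all genes. In heterozygous against wild-type HCs edgeR again called 0 members, beside 0% of all genes, and in homozygous mutant against heterozygous HCs 0 members, beside 0.00659%. In neither did a member have an unadjusted p under 0.05 (4.52% and 6.78% of all genes did), and DESeq2 and limma-voom called 0 members in both. These tools called 45 and 1 of all genes in heterozygous against wild-type HCs, and 147 and 151 in homozygous mutant against heterozygous HCs. Groups of homozygous mutant and heterozygous HCs overlapped for all 5 members, whereas they did not for 14.1% of all genes. The adjusted p of the members in edgeR's quasi-likelihood test lay between 0.396 for *Rfx5* and 0.982 for *Rfx3* in homozygous mutant against wild-type HCs, and was 1 for every member in the other 2 comparisons. A p that misses the threshold does not show equal levels, and the intervals above give what these 3 mice per genotype allow. In homozygous mutant against wild-type HCs they take in a 2-fold change for *Rfx1*, *Rfx2*, *Rfx5* and *Rfx7*, and not for *Rfx3*.

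**Figure D2:**
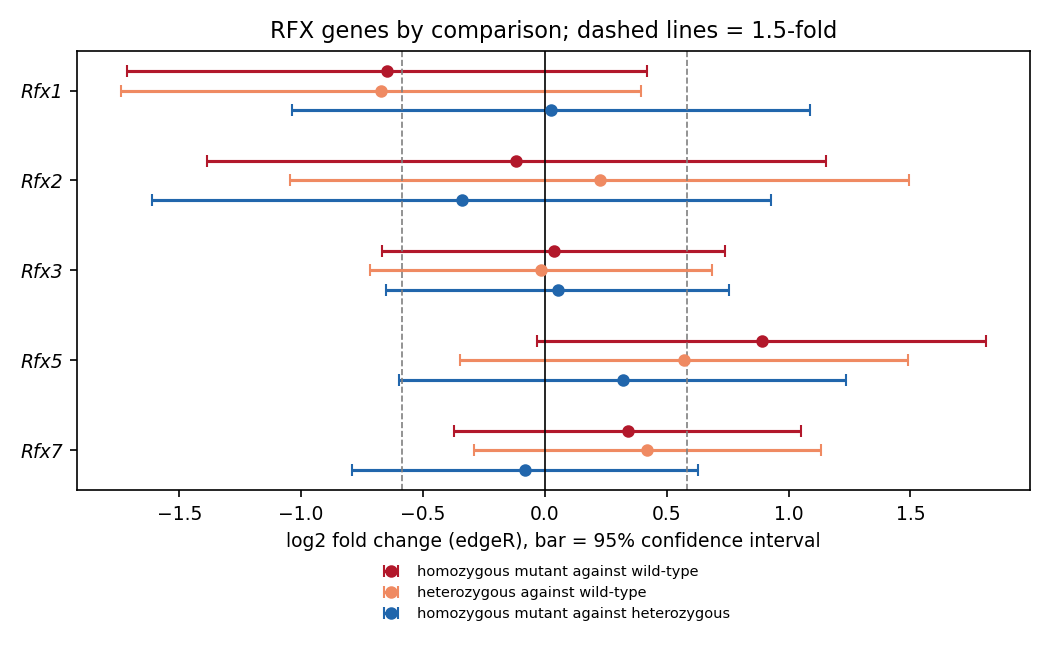
Log2 fold changes of the 5 RFX genes tested, with 95% confidence intervals from edgeR, for homozygous mutant against wild-type, heterozygous against wild-type and homozygous mutant against heterozygous HCs. Dashed lines mark a change of 1.5-fold; every interval includes 0, that of *Rfx5* in homozygous mutant against wild-type HCs only just (-0.03 to 1.81).

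Levels of different members were compared per length, as CPM per kb of the union of annotated exons. In homozygous mutant HCs the order was *Rfx5* (11.4 ± 5.62), *Rfx3* (8.24 ± 2.32), *Rfx1* (6.999 ± 2.91), *Rfx7* (4.62 ± 0.654) and *Rfx2* (3.38 ± 1.87 CPM per kb; SD, n = 3). Heterozygous HCs had the same order, with *Rfx5* at 9.20 ± 1.250 and *Rfx2* at 4.31 ± 0.792 CPM per kb. In wild-type HCs it was *Rfx1* (10.4 ± 3.94), *Rfx3* (7.56 ± 1.47), *Rfx5* (5.85 ± 2.64), *Rfx2* (3.50 ± 2.73) and *Rfx7* (3.44 ± 0.510 CPM per kb). Neighbours in each order overlapped in every genotype, so none of these steps exceeded the spread between mice. *Rfx5* led in homozygous mutant 43 and 46 and heterozygous 45, *Rfx3* in homozygous mutant 47, heterozygous 51 and wild-type 44, and *Rfx1* in heterozygous 48 and wild-type 55 and 59. Over the 9 libraries the means were 8.81 CPM per kb for *Rfx5*, 8.09 for *Rfx1*, 7.93 for *Rfx3*, 4.32 for *Rfx7* and 3.73 for *Rfx2*, which placed the members between the percentiles 35.9 and 57.8 of the genes tested. With the length of the longest transcript, *Rfx1* stood above *Rfx3* in homozygous mutant and heterozygous HCs and *Rfx7* above *Rfx2* in wild-type HCs, again with overlapping neighbours. The levels of *Rfx7* depend on the length used, since its exon union has 15302 bases and its longest transcript 7988 bases.

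**Figure D3:**
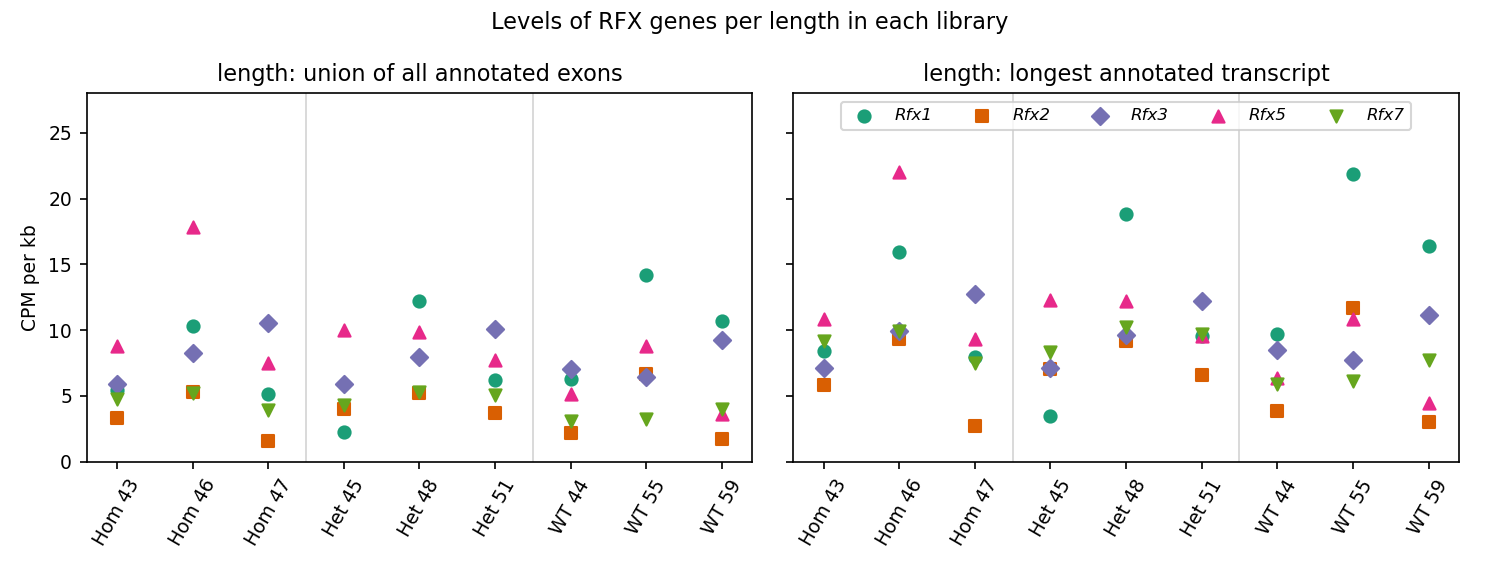
Level per length of each RFX gene with reads (CPM per kb, linear axis from 0) in each library, homozygous mutant (Hom), heterozygous (Het) and wild-type (WT) from left to right, with length as the union of exons (left panel) or the longest transcript (right panel). No member leads in all 9 libraries, and *Rfx7* moves up relative to the others when the longest transcript is used.

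The members differed in how steady they were between mice of 1 genotype. The SD of log2 CPM within genotypes was 0.22 for *Rfx7*, 0.39 for *Rfx3*, 0.54 for *Rfx5*, 0.80 for *Rfx2* and 0.87 for *Rfx1*, with a median of 0.73 over all genes tested. Among the 500 genes nearest in mean CPM, the SD of *Rfx7* stood at percentile 2.80 and that of *Rfx1* at percentile 90.4. Likeness of pattern was measured as the mean absolute difference of centred log2 CPM over the 9 libraries. The libraries differed in depth and sample quality, and any 2 genes share these differences. Among the members the closest pair was *Rfx3* and *Rfx7* (0.33), and the pairs *Rfx2* and *Rfx5* and *Rfx5* and *Rfx7* both stood at 0.37, whereas *Rfx1* and *Rfx2* stood at 0.62. The measure is small for any 2 steady genes, and *Rfx3* and *Rfx7* deviated from their own means by only 0.28 and 0.22, less than they differed from each other. Among 13033 protein-coding genes those nearest to *Rfx7* were *Utp6*, *Ireb2* and *Psmd1* (0.11 to 0.12), and those nearest to *Rfx3* were *Ino80b*, *Washc5* and *Cpsf6* (0.14 to 0.15). For *Rfx5* they were *Rnd3*, *Ap3b1* and *Stom* (0.17), for *Rfx2* *Fblim1*, *Galnt16* and *Phf2* (0.19 to 0.24) and for *Rfx1* *Ap2a1* and *Ptprs* (0.24). The median over those genes was 0.57 to 0.87, depending on the member.

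RFX5 acts in a complex with RFXAP and RFXANK, and on MHC promoters with the CCAAT-binding NF-Y subunits, CREB1 and the coactivator CIITA. *Ciita* had no read in any library. Of these 7 partner genes 6 were tested and edgeR called 0 in homozygous mutant against wild-type HCs, with 1 at an unadjusted p under 0.05. Their median log2 fold change was -0.47, against -0.02 over all genes tested, and all 6 were below 0. The sum of the 7 genes was lowest in homozygous mutant 46, at 54.0 CPM. It was 120 and 117 CPM in homozygous mutant 43 and 47 and 122 to 164 CPM in wild-type HCs. *Rfxank* and *Rfxap*, the obligate partners of RFX5, had log2 fold changes of -0.48 (SE 0.78) and -0.06 (SE 0.73). *Nfya*, the DNA-contacting subunit of NF-Y, had 9.86, 2.42 and 20.9 CPM in homozygous mutant HCs, 31.3, 17.4 and 19.9 CPM in heterozygous HCs and 36.2, 35.8 and 73.5 CPM in wild-type HCs. Every homozygous mutant value lay below every wild-type value, with the lowest in homozygous mutant 46 and the highest in wild-type 59. Its log2 fold change was -2.24 (SE 0.67, interval -3.62 to -0.85), with an adjusted p of 0.150 in edgeR's quasi-likelihood test, which missed the threshold. In checks of the lists added after seeing the data, it passed in DESeq2 (adjusted p = 0.0310), in edgeR with no filter on low counts (adjusted p = 0.0360) and in edgeR without wild-type 44 (adjusted p = 0.0784).

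MHC class II genes, the textbook targets of RFX5, were little read in these HCs. Of 10 such genes 4 had no read in any library, among them *Cd74* and the antigen-presenting chains *H2-Aa* and *H2-Ab1*. Of the 4 that were tested edgeR called 0 in homozygous mutant against wild-type HCs (1 at an unadjusted p under 0.05), with 3 above 0 and a median log2 fold change of 1.27, against -0.02 over all genes tested, and they were peptide-loading genes. *H2-DMa*, the best read, had 27.1, 42.4 and 25.5 CPM in homozygous mutant HCs, 16.7, 38.3 and 38.3 CPM in heterozygous HCs and 60.5, 19.7 and 13.0 CPM in wild-type HCs, a log2 fold change of -0.04 (SE 0.58) between homozygous mutant and wild-type. *H2-Ob*, the 1 with an unadjusted p under 0.05, had 1.83, 0 and 5.63 CPM in homozygous mutant HCs and at most 0.0447 CPM in wild-type HCs. Its level rested on 2 libraries, and it passed the filter on low counts through the homozygous mutants alone. That leaves its p without weight, and likewise the count of 3 above 0 and the median, which include it. The summed level of the 10 genes was 45.4 to 69.6 CPM in homozygous mutant and 29.7 to 73.4 CPM in wild-type HCs, ranges that overlap.

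Of 9 MHC class I and peptide-transport genes 6 were tested, and edgeR called 0 (0 at an unadjusted p under 0.05). Of these, 4 were above 0, with a median log2 fold change of 1.67 against -0.02 over all genes tested. *H2-D1* passed the filter on low counts through the homozygous mutants alone, which leaves that count and that median, both of which include it, without weight. The summed level of the 9 genes was 105 to 134 CPM in homozygous mutant and 123 to 139 CPM in wild-type HCs, ranges that overlap. *B2m*, the invariant light chain of MHC class I, had 15.97, 40.1 and 24.8 CPM in homozygous mutant HCs, 9.06, 8.77 and 16.2 CPM in heterozygous HCs and 7.10, 10.005 and 8.54 CPM in wild-type HCs. The homozygous mutant values all lay above the wild-type values, with the highest again in homozygous mutant 46. Its log2 fold change was 1.58 (SE 0.79, interval -0.06 to 3.22), with an adjusted p of 0.397 in edgeR's quasi-likelihood test. *Tapbp*, a peptide-loading chaperone, lay the other way, at -0.55 (SE 0.42).

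Genes of cilia, the usual targets of RFX1, RFX2 and RFX3, were well read, and all 40 on the list passed the filter. Their summed level was 4485 to 4981 CPM in homozygous mutant, 5045 to 5085 CPM in heterozygous and 4457 to 4902 CPM in wild-type HCs, ranges that overlap between homozygous mutant and wild-type. EdgeR called 0 of 40 in homozygous mutant against wild-type HCs, with 19 above 0 and a median log2 fold change of -0.06 against -0.02 over all genes. At an unadjusted p under 0.05 were 6 of the 40, beside 13.1% of all genes, and they lay in both directions. *Tekt1*, a tektin of ciliary microtubules, had 353, 317 and 329 CPM in homozygous mutant HCs, 341, 219 and 257 CPM in heterozygous HCs and 284, 166 and 158 CPM in wild-type HCs. All 3 homozygous mutant values lay above the wild-type values, with a log2 fold change of 0.64 (SE 0.27, adjusted p = 0.303 in edgeR). *Nphp4*, a gene of the ciliary transition zone, lay the other way, with 72.3, 47.4 and 27.5 CPM in homozygous mutant HCs, 36.3, 97.4 and 78.9 CPM in heterozygous HCs and 64.5, 111 and 129 CPM in wild-type HCs, overlapping groups and a log2 fold change of -1.15 (SE 0.43, adjusted p = 0.258 in edgeR). *Dnaaf4*, a dynein assembly factor, had 0.684, 19.0 and 5.20 CPM in homozygous mutant HCs and 10.3, 0.150 and 4.82 CPM in heterozygous HCs. It had at most 0.134 CPM in wild-type HCs (adjusted p = 0.214 in edgeR for homozygous mutant against wild-type). *Dnaaf4* met the filter on low counts through the homozygous mutants and heterozygotes, not through wild-type HCs. That leaves its p-values, here and below, without weight. Some of these genes passed the threshold for calls under alternatives chosen after seeing the data. They were *Dnaaf4* (adjusted p = 0.0032) in DESeq2, *Nphp4* (0.0949) in edgeR with no filter, and *Tekt1* (0.0493) and *Nphp4* (0.0941) in edgeR without wild-type 44.

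The co-regulators that act with RFX factors in ciliogenesis were mixed in level. Of 11 such genes 4 had no read and 6 were tested, of which edgeR called 0 (0 at an unadjusted p under 0.05) in homozygous mutant against wild-type HCs, with a median log2 fold change of -0.22. *Foxj1*, the master regulator of motile cilia, which is also on the list of cilium genes, stood at 739, 651 and 674 CPM in homozygous mutant HCs, 631, 698 and 624 CPM in heterozygous HCs and 747, 758 and 641 CPM in wild-type HCs. The groups overlapped, with a log2 fold change of -0.14 (SE 0.22). *E2f4*, an E2F factor needed for multiciliated cells, had a log2 fold change of -0.57 (SE 0.42).

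For RFX7, 15 genes known as its targets from human cells were all tested, *Rfx5* and *Rfx7* among them. EdgeR called 0 in homozygous mutant against wild-type HCs (1 at an unadjusted p under 0.05), with 7 above 0 and a median log2 fold change of -0.02. *Klf2*, a quiescence factor of lymphocytes, had 32.7, 27.3 and 23.0 CPM in homozygous mutant HCs, 23.4, 22.5 and 44.8 CPM in heterozygous HCs and 33.2, 52.3 and 77.9 CPM in wild-type HCs. All homozygous mutant values lay below the wild-type values, narrowly at the nearest, with a log2 fold change of -1.07 (SE 0.48, adjusted p = 0.337 in edgeR). *Sesn3*, a sestrin that restrains mTORC1 signalling, lay the other way, with 81.0, 89.6 and 89.0 CPM in homozygous mutant HCs, 81.2, 69.4 and 87.1 CPM in heterozygous HCs and 55.1, 66.6 and 21.8 CPM in wild-type HCs, at a log2 fold change of 0.78 (SE 0.38, adjusted p = 0.381 in edgeR). *Pik3ip1*, an inhibitor of PI3 kinase, stood at 1.28 (SE 0.62) and *Pnrc1* at -0.69 (SE 0.34).

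**Figure D4:**
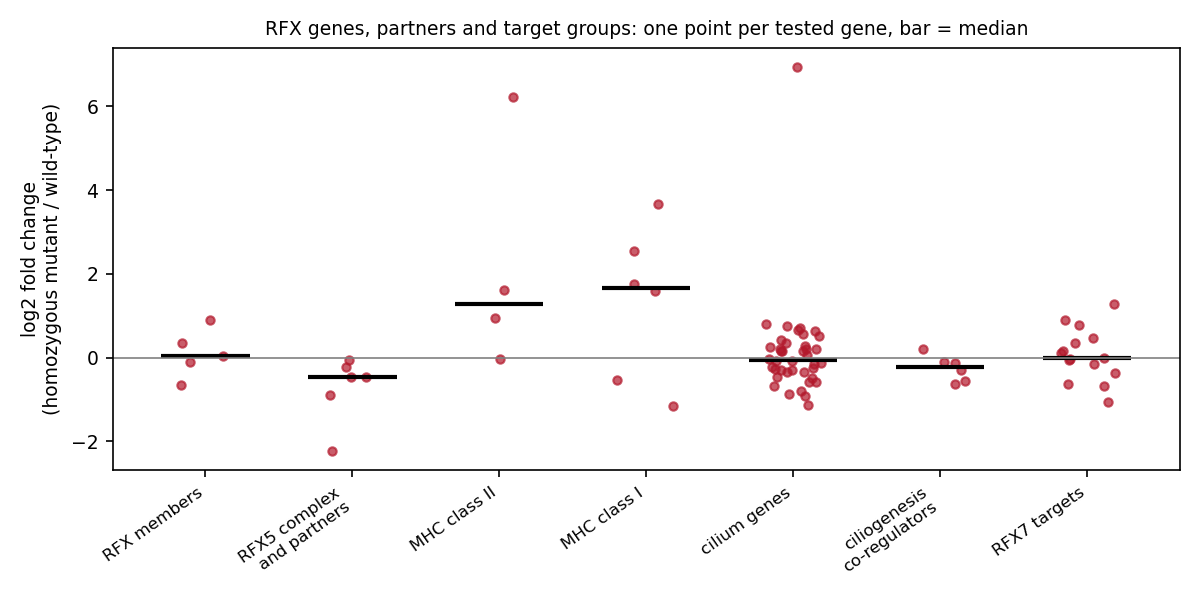
Log2 fold change between homozygous mutant and wild-type HCs for each tested gene among the RFX members and the groups of partners and targets (points) with the median of each group (bars). The 40 cilium genes centre at -0.06 and the RFX7 targets at -0.02, and the 2 points above 6 are *Dnaaf4* and *H2-Ob*, which are near 0 CPM in wild-type HCs. The MHC groups each hold a gene, *H2-Ob* or *H2-D1*, that passed the filter on low counts through the homozygous mutants alone. No point is a call.

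Promoters were read for the motif that RFX proteins bind, in the window from 250 bases before to 50 bases after each start (RefSeq, GRCm38.p6, both strands). The X-box was written as GTTNCC, 0 to 3 bases, then GGNAAC, and X-boxes with other letters were not searched. In these letters it was in the promoters of 0 of the 6 members, of 3 of the 33 cilium genes with a promoter in the table (9.09%) and of 0.936% of all 27025 genes. The 3 cilium genes are printed because they show the full site, with the X-box in capitals and 6 bases on each side.
Bbs7, 121 bases before the start, chr3:36613497-36613510: gccccgGTTGCCTTGGAAACcggcca
Mks1, 24 bases before the start, chr11:87853191-87853204: gtctccGTTGCCAGGGGAACgaggca
Ift57, 60 bases before the start, chr16:49699234-49699246: cctgcgGTTGCCTGGTAACggtggg
The *Bbs7* site is on the minus strand and the others are on the plus strand. Bbs7 is a subunit of the BBSome, Mks1 a transition-zone protein and Ift57 a subunit of the transport complex IFT-B. None of the 3 was called in homozygous mutant against wild-type HCs, with log2 fold changes of 0.79 (SE 0.71) for *Bbs7*, -0.50 (SE 0.54) for *Mks1* and -0.08 (SE 0.36) for *Ift57*.

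The arm GTTGCC, which is part of all 3 of these sites, was in the promoters of 3 of the 6 members, of 17 of the 33 cilium genes (51.5%) and of 14.1% of all genes. The members were *Rfx1*, *Rfx2* and *Rfx3*. Their sites are printed, with the arm in capitals and 10 bases on each side, because they carry a shared arrangement.
Rfx1, 1 base after the start, chr8:84066837-84066842, plus strand: ggtagcaacaGTTGCCccggtgaggg
Rfx2, 116 bases before the start, chr17:56831119-56831124, minus strand: cttggtaaccGTTGCCgggcgcaacg
Rfx3, 31 bases after the start, chr19:28011130-28011135, minus strand: tatagcaaccGTTGCCttgtgaatca
In each the arm follows directly on GNAAC and 1 base. GNAAC is the opposite arm of the palindrome, GGNAAC, without its first G, and of these sites only that of *Rfx2* has the G. With that arm so shortened, the arms stand in the reverse of the X-box order. Written as GNAACNGTTGCC on either strand, this arrangement was in 25 of 32851 promoters (0.0761%), 3 of which are those of *Rfx1*, *Rfx2* and *Rfx3*, and in 0 of the 38 promoters of the cilium genes. The letters were set after the members' promoters had been read, so the count of members is a description. A match says only that these letters are in the window.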

How the data were processed

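Per the submitters' processing notes, the authors used HISAT2 2.0.4 on GRCm38 and HTSeq for counting, and the deposited values are raw counts per gene and library, with no normalization. No source used here states the strand setting, and the libraries came from a directional kit with few nanograms of input and 22 PCR cycles, so that reads are not independent molecules. The limit of 3 reads behind a count of 0 covers counting error only, whereas the intervals of fold changes come from the spread between mice. Libraries were matched to genotypes through their labels.

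CPM and log2 CPM (prior count 2) were computed from the counts. The main test was edgeR 4.0.16 (R 4.3.3, limma 3.58.1, glmQLFit with robust dispersion, TMM, all 9 libraries in 1 fit, Benjamini-Hochberg over 15184 genes). The paper calls the wild-type mice littermates, and neither it nor the labels say which mice shared a litter. Chi-square values per gene between replicates of a genotype were 103 to 254, far above what sampling alone would give. Alternatives were DESeq2 1.42.0, limma-voom with quality weights, other normalizations and filters, 2 added terms, protein-coding genes alone, 2 genotypes alone, and leaving out libraries. The fits were tested on simulated data. Lengths, coordinates and 3′ UTRs came from GENCODE vM21, and promoters and microRNAs from RefSeq. All 6 members matched by gene ID.

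The members and lists were chosen with earlier results of these data known. The text names every member, for each list the genes called and otherwise up to 4 of smallest p in homozygous mutant against wild-type HCs, and for each member the 3 genes of nearest pattern. Some genes that this rule names are not reported here. *H2-DMa*, *Rfxank* and *Rfxap* and the genes with an X-box were named beside these for their roles.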

Additional observations from a re-analysis of the deposited data

How the results depend on the processing

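No paired analysis was possible because the mouse numbers are shared by no 2 genotypes and the sources used here do not say which mice were littermates. Under all 20 alternatives 0 members were called in each of the 3 comparisons. Calls over all genes in homozygous mutant against wild-type HCs ran from 12 (with *Xist* and *Ddx3y* in the model) to 966 (DESeq2). Of 300 values of members under alternatives 35 had the opposite sign to the main fit, and 34 of these belong to log2 fold changes between -0.35 and 0.35. Calls within the lists of partners and targets under the alternatives were counted after seeing the data. The causes of these shifts were not tested.

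With a term for mouse number class (47 and lower against 48 and higher), the log2 fold change for homozygous mutant against wild-type turned to 0.41 for *Rfx1* and 0.31 for *Rfx2*, and for homozygous mutant against heterozygous to 0.0271 for *Rfx2* and 0.12 for *Rfx7*, while *Rfx1* moved to 1.28 there. With limma-voom it turned to -0.0184 for *Rfx2* and 0.22 for *Rfx3* in heterozygous against wild-type, and to -0.14 for *Rfx1* and -0.18 for *Rfx3* in homozygous mutant against heterozygous. *Rfx3* in heterozygous against wild-type also turned to 0.0802 with library totals, 0.00674 with no filter, 0.00589 with filterByExpr and 0.0648 with *Xist* and *Ddx3y* in the model. Without homozygous mutant 46 and wild-type 59 together, heterozygous against wild-type turned to -0.0869 for *Rfx2* and 0.20 for *Rfx3*, and homozygous mutant against heterozygous to -0.38 for *Rfx1* and -0.18 for *Rfx5*.

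Leaving out 1 library at a time, the log2 fold change for homozygous mutant against wild-type ranged over -0.595 to 0.72 for *Rfx2* and -0.18 to 0.27 for *Rfx3*. For heterozygous against wild-type it ranged over -0.0945 to 1.06 for *Rfx2* and -0.21 to 0.20 for *Rfx3*. For homozygous mutant against heterozygous it ranged over -0.41 to 0.75 for *Rfx1*, -0.84 to 0.00717 for *Rfx2*, -0.16 to 0.26 for *Rfx3*, -0.18 to 0.55 for *Rfx5* and -0.18 to 0.0288 for *Rfx7*. *Rfx1*, *Rfx5* and *Rfx7* kept their sign against wild-type. *Rfx1* ranged over -1.04 to -0.38 in homozygous mutant and -1.40 to -0.23 in heterozygous HCs, *Rfx5* over 0.41 to 1.28 and 0.33 to 0.96 in the same comparisons, and *Rfx7* over 0.26 to 0.50 and 0.34 to 0.58.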
